A study of Mus musculus with 16 samples.

Results

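Immediate early genes are switched on within minutes of a stimulus, without new protein synthesis, by kinases such as ERK and by transcription factors that already sit at their promoters, mainly serum response factor with its ETS partners at CArG boxes and CREB at cAMP response elements. The first proteins they encode are themselves transcription factors, among them the zinc-finger Egr proteins and the orphan nuclear receptors of the Nr4a family, and also phosphatases that switch the kinases off again. In differentiating embryonic stem cells they report recent signalling and are part of the response to growth factors and to stress. The set described here holds 10 of these genes, Egr1, Egr2, Egr3, Nr4a1, Nr4a2, Nr4a3, Ier2, Ier3, Arc and Dusp1, out of 44866 gene names on the array, and they were taken by name, from a set drawn up with earlier results of these data known. They are covered by 15 of the 60273 probes. Only 5 probes, for 3 of the genes, carry the gene symbol in the scanner files, and the other 10 were matched through the RefSeq accession of their transcript. Of the 15 probes, 14 passed the filter on dim signals, and each of the 10 genes was tested at its brightest such probe, alongside 29226 genes in all. No member was saturated on any array.

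RNA came from differentiating CGR8-Myh6-GFP mESCs, a mouse embryonic stem cell line that carries GFP under the cardiac Myh6 promoter, so that every group is from 1 reporter line. The cells were differentiated towards cardiomyocytes in multi-well plates and treated from day 4 for 6 h or for 24 h. The 6 groups were the vehicle DMSO (2 samples at each time), WS1442 at 0.25 mg/ml (3 samples at each time), a dried extract made with ethanol from the leaves and flowers of hawthorn, and MeOH eluate at 0.1 mg/ml (3 samples at each time), the methanol fraction of that extract enriched in oligomeric procyanidins. All 16 arrays were 1-colour Agilent arrays, and values are quantile normalised log2 signals, so that a difference of 1 is a doubling. The methods of the study speak of independent biological replicates for its data in general, with more of them than the DMSO groups hold here, and neither they nor the labels say whether the array samples of a group came from separate cultures. The p-values therefore measure the spread between these samples, part of which may be technical.

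Between 55.1% and 63.0% of the spots of an array were well above background. All arrays of the 6 h groups were on 1 slide and all of the 24 h groups on the other. The level of a gene at 6 h and at 24 h thus cannot be told apart from the slide and was not tested between times. On each slide both DMSO arrays were in column 1, the WS1442 arrays in columns 2 and 3 and the MeOH eluate arrays in columns 3 and 4. In the comparisons with DMSO, treatment therefore cannot be told apart from the column, whose part was not tested. RNA integrity numbers lay between 9.6 and 10 except for replicate 2 of WS1442 at 24 h, at 8.6. The incorporation of the Cy3 dye was between 31.8 and 32.8 pmol/µg in the WS1442 samples at 24 h, against 25.8 and 26.1 in DMSO, and its part in the results was not tested. In these cultures the stem cell factor Pou5f1 and the mesoderm markers T, Mesp1, Kdr and Pdgfra were well above background on all 16 arrays. Of the endothelial and blood markers, Pecam1, Tek, Tal1, Gata1, Runx1 and Hba-x were so on all 16, Hbb-bh1 on 14 and Cdh5 on 5. In bulk RNA, a change in the number of cells that express a gene and a change in the RNA per cell cannot be told apart.

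Most of the set was higher in treated than in vehicle cells, by less than 2-fold in nearly every case. After 6 h of WS1442, 6 of the 10 genes rose and none fell (limma, adjusted p under 0.05 over all genes), where 4.15% of all genes tested rose and 5.61% changed in either direction. After 6 h of MeOH eluate 6 rose and none fell, where 8.67% of all genes rose and 17.1% changed. At 24 h, 8 rose with WS1442 and none fell, where 12.9% of all genes rose and 24.7% changed, and 6 rose with MeOH eluate and none fell, where 9.64% rose and 18.2% changed. The median log2 fold change over the 10 genes was 0.36 with WS1442 and 0.46 with MeOH eluate at 6 h, and 0.49 and 0.34 at 24 h. Over all genes tested the same medians were -0.01, -0.00, 0.05 and 0.01. The 2 treatments of a time point share their 2 DMSO samples. With 3 samples against 2, groups that do not overlap are common. Every treated sample was above both DMSO samples for 7, 6, 9 and 7 of the 10 members (WS1442 and MeOH eluate at 6 h, then at 24 h). The same held for 20.1%, 25.6%, 27.8% and 22.1% of all genes. The study used limits of a change of more than 2-fold with an unadjusted p under 0.05, for genes regulated by both treatments. By limma, 1 member rose past these limits with WS1442 at 6 h (Egr2), where 0.253% of all genes did so. With WS1442 at 24 h 1 did (Nr4a1), where 1.58% did. The log2 fold change of Egr2 was 0.75 without DMSO replicate 1 at 6 h, below that limit. With MeOH eluate no member passed these limits by limma at either time, where 1.02% and 1.84% of all genes were above them. No member thus passed them with both treatments, although 6 had an adjusted p under 0.05 with MeOH eluate at each time. Without DMSO replicate 1 at 6 h the counts at an adjusted p under 0.05 were 4 for WS1442 and 4 for MeOH eluate, the latter also without MeOH eluate replicate 3, and without DMSO replicate 1 at 24 h they were 4 and 3.

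**Figure D1:**
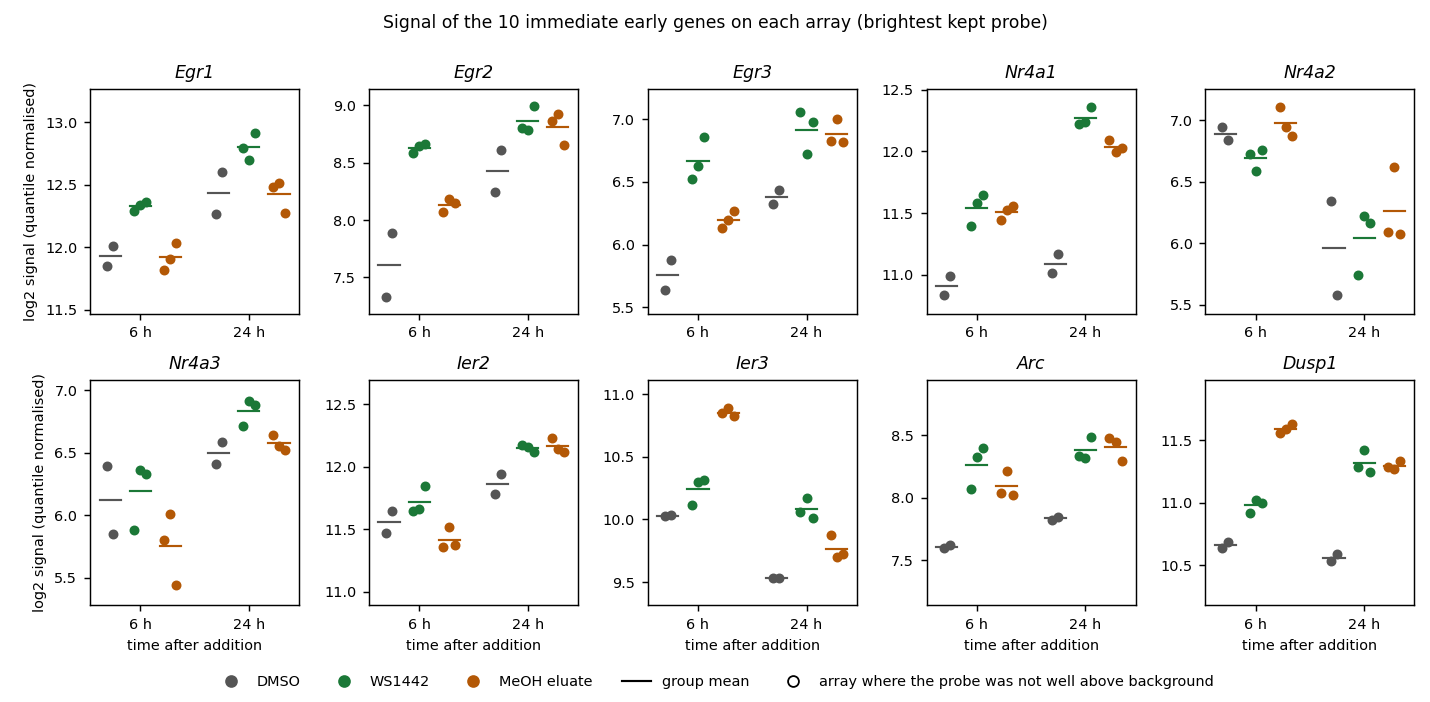
Each panel plots 1 gene at its tested probe, with the quantile normalised log2 signal on the vertical axis and the 6 h and 24 h samples on the horizontal axis. Points are single arrays, coloured by treatment, and lines are group means. Egr2, Egr3, Nr4a1, Ier3, Arc and Dusp1 lie above both DMSO points on every treated array at both times, Egr1 does so on every array with WS1442 but not with MeOH eluate, and Nr4a2 has overlapping points at 24 h. Of all genes, 20.1%, 25.6%, 27.8% and 22.1% have every treated array above both DMSO arrays (WS1442 and MeOH eluate at 6 h, then at 24 h).

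Among the Egr genes, which bind GC-rich sites and carry growth factor signals to their targets, Egr1, Egr2 and Egr3 all rose with WS1442 at both times. A further Egr gene, Egr4, is not in the set and was not higher in treated samples at 6 h. Its mean signals in DMSO, WS1442 and MeOH eluate were 9.29, 9.10 and 9.13 at 6 h, and 8.24, 8.24 and 8.21 at 24 h. Egr2, known for its part in hindbrain and nerve development, had the largest change of the set at 6 h. Its signals in DMSO at 6 h were 7.33 and 7.88, those with WS1442 8.59, 8.64 and 8.67, and those with MeOH eluate 8.07, 8.19 and 8.14. The WS1442 samples lay close together and above all others, and the MeOH eluate samples lay between them and DMSO without overlap. The log2 fold change was 1.02 ± 0.14 with WS1442 (SE, n = 3 against 2, limma adjusted p = 0.00141), a 2.03-fold rise, and 0.53 ± 0.14 with MeOH eluate (limma adjusted p = 0.0197). The pair of DMSO samples differed more from each other than the treated samples of either group did, and without DMSO replicate 1 the change with MeOH eluate was 0.25 (limma adjusted p = 0.357). It also missed the threshold without MeOH eluate replicate 3 (limma adjusted p = 0.0544). At 24 h the DMSO signals were 8.25 and 8.61, those with WS1442 8.80, 8.78 and 9.0, and those with MeOH eluate 8.87, 8.93 and 8.65. All treated samples were above DMSO, but with MeOH eluate by only a small margin. Egr2 rose by 0.43 ± 0.14 with WS1442 (limma adjusted p = 0.0372), and the value with MeOH eluate was 0.39 ± 0.14, which did not pass (limma adjusted p = 0.074). The rise with WS1442 at 24 h was lost without DMSO replicate 1 and without any 1 of the WS1442 samples (limma adjusted p = 0.0513 to 0.395).

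Egr3, a relative that is itself activated by Egr1 in several tissues, followed the same order at 6 h. Its signals were 5.64 and 5.88 in DMSO, 6.52, 6.63 and 6.86 with WS1442, and 6.13, 6.19 and 6.26 with MeOH eluate. The 3 groups did not overlap. The rises were 0.91 ± 0.13 for WS1442 (limma adjusted p = 0.00191) and 0.44 ± 0.13 for MeOH eluate (limma adjusted p = 0.0326). At 24 h the rises were 0.54 ± 0.13 and 0.51 ± 0.13 (limma adjusted p = 0.00776 and 0.014), and both treated groups, at 6.72 to 7.05 and 6.82 to 7.0, were above the DMSO signals of 6.32 and 6.43. Without DMSO replicate 1 neither rise at 24 h passed (limma adjusted p = 0.0767 and 0.117), nor did that with MeOH eluate without its replicate 2 (0.0512). The rise with MeOH eluate at 6 h was lost without DMSO replicate 1 or any 1 MeOH eluate sample (limma adjusted p = 0.0504 to 0.303).

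Egr1, the founding member of the family and a classical target of ERK signalling, rose with the whole extract and not with the fraction. At 6 h its signals were 11.85 and 12.01 in DMSO, 12.29, 12.34 and 12.36 with WS1442, and 11.82, 11.90 and 12.03 with MeOH eluate. WS1442 lay above both other groups, which overlapped. The change was 0.40 ± 0.10 with WS1442 (limma adjusted p = 0.0302) and -0.01 ± 0.10 with MeOH eluate (95% interval -0.22 to 0.20). At 24 h the DMSO signals were 12.27 and 12.60, those with WS1442 12.79, 12.70 and 12.92, and those with MeOH eluate 12.48, 12.51 and 12.27. The change was 0.37 ± 0.10 with WS1442 (limma adjusted p = 0.0138) and again -0.01 ± 0.10 with MeOH eluate (95% interval -0.22 to 0.20). Without DMSO replicate 1 the change with WS1442 was 0.32 at 6 h (limma adjusted p = 0.358) and 0.20 at 24 h (limma adjusted p = 0.261). It also missed the threshold without WS1442 replicate 2 or 3 at 6 h and without WS1442 replicate 3 at 24 h (limma adjusted p = 0.0599 to 0.0925).

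Egr2 has 5 start sites in the RefSeq promoter table (GRCm38.p6), and a CArG box, the binding site of serum response factor, lies within the 250 bases upstream of 4 of them, as 2 separate boxes. Of 32851 promoter windows of this length in the mouse, 1.47% hold a CArG box on either strand. Stretches of 30 bases around both boxes are shown because they hold the element through which this class of gene is classically induced. The capitals mark the CArG box and, in the second stretch, the core of the cAMP response element (TGACG on either strand, here read from the other strand), which 17.8% of all windows hold. The windows of all 5 start sites overlap the annotated span of Egr2. The first stretch is at chr10:67537486-67537515 and the second at chr10:67537789-67537818, both on the plus strand.
Egr2, upstream box: gatcttctCCTTTTTTGGaaagtctcggag
Egr2, downstream box: tcctcagtCCATATATGGgcagcgaCGTCA

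The Nr4a receptors bind DNA without a known ligand and are induced by calcium, cAMP and growth factors. Nr4a1 gave the largest change of the set at 24 h and rose in all 4 comparisons with DMSO. At 6 h its signals were 10.83 and 10.99 in DMSO, 11.39, 11.58 and 11.65 with WS1442, and 11.44, 11.53 and 11.56 with MeOH eluate. Both treated groups lay above DMSO and overlapped each other. The rises were 0.63 ± 0.08 and 0.60 ± 0.08 (limma adjusted p = 0.000493 and 0.000111). At 24 h its signals were 11.01 and 11.17 in DMSO, 12.22, 12.24 and 12.36 with WS1442, and 12.09, 12 and 12.03 with MeOH eluate. The 3 groups were fully apart, with WS1442 highest. The rises were 1.18 ± 0.08 with WS1442 (limma adjusted p = 6.93e-07), which is 2.27-fold, and 0.95 ± 0.08 with MeOH eluate (limma adjusted p = 9.75e-07), which is 1.93-fold.

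Nr4a2 and Nr4a3, the paralogs of Nr4a1, did not pass the test in any comparison. Nr4a2, which dopaminergic neurons need, had log2 fold changes of -0.20, 0.08, 0.08 and 0.30 (WS1442 and MeOH eluate at 6 h, then at 24 h), each with an SE of 0.21. Its signals ran from 6.59 to 7.11 at 6 h, with the WS1442 samples lowest, and from 5.58 to 6.62 at 24 h, where the 2 DMSO samples, at 6.35 and 5.58, enclosed nearly all treated samples. Nr4a3 had 0.07, -0.37, 0.34 and 0.08, with an SE of 0.19. The 95% intervals at 24 h reached up to 0.54 and 0.76 for Nr4a2 and up to 0.74 and 0.48 for Nr4a3 (WS1442, then MeOH eluate).

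The promoters of the 3 paralogs share 1 of the searched elements. Each holds 4 cores of the cAMP response element in the 250 bases upstream of its start site in the RefSeq table (GRCm38.p6), and 0.137% of all windows, 45 of 32851, hold at least 4. Nr4a1 and Nr4a2 also hold 1 EGR site each (GCGNGGGCG, in 4.7% of all windows), which overlaps no core. The windows of Nr4a1 (chr15:101266596-101266845, plus strand) and Nr4a2 (chr2:57124004-57124253, minus strand) are printed in full because both hold cores and an EGR site, with these in capitals. The Nr4a1 window lies inside the annotated span of the gene, since a further transcript starts upstream of it. The Nr4a3 window also overlaps the annotated span of its gene, and that of Nr4a2 does not. For Nr4a3, 30 bases with 2 of its cores are shown (chr4:48045092-48045121, plus strand).
Nr4a1: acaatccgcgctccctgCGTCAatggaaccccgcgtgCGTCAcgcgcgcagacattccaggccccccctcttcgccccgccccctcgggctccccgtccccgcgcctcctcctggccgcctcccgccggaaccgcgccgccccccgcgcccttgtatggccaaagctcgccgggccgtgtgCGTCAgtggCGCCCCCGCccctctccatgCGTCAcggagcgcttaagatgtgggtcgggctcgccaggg
Nr4a2: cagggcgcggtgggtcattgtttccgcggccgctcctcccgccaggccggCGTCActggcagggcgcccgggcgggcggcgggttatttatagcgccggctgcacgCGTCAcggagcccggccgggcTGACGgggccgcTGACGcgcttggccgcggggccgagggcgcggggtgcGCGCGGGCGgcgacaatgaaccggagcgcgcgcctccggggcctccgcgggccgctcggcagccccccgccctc
Nr4a3: CGTCAcatTGACGtctcgcattccaggcac

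None of the 6 members in the promoter table (Egr2, Nr4a1, Nr4a2, Nr4a3, Ier3 and Dusp1) holds an NBRE, the site that Nr4a proteins bind as monomers (AAAGGTCA, in 1.34% of all windows). Nr4a1 and Nr4a2 hold the same number of the searched elements in the 1 window searched for each. The counts are matches of letters in a fixed window and say nothing about binding in these cells. Their part in the values of the 2 genes was not tested.

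**Figure D2:**
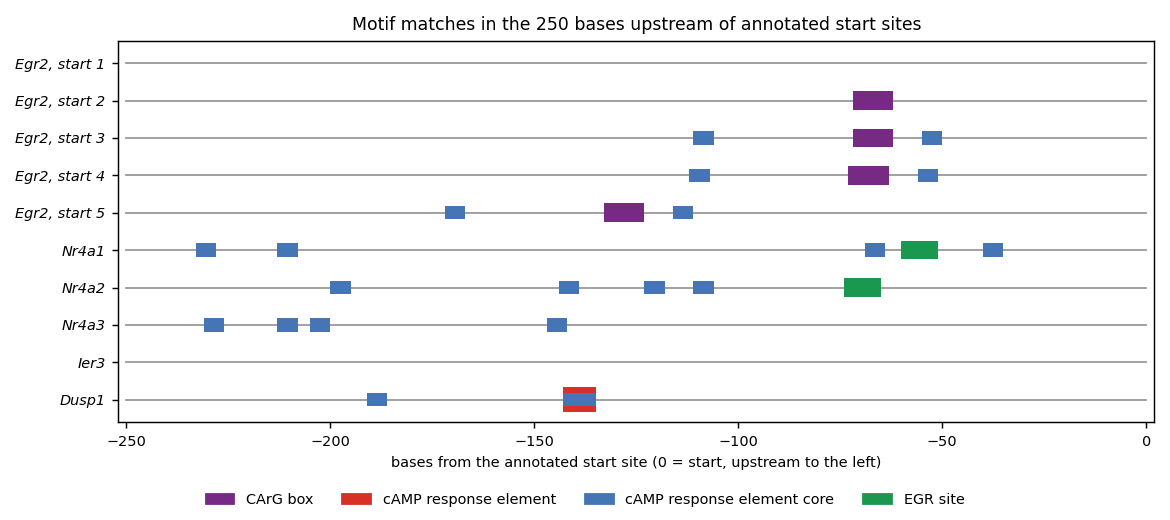
Each line stands for the 250 bases upstream of 1 annotated start site of a member, with distance from the start in bases on the horizontal axis, and boxes mark matches to 4 elements. The 3 Nr4a genes have 4 cores of the cAMP response element each, Dusp1 has the full element, 4 of the 5 Egr2 starts have a CArG box, and Ier3 has no match.

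Dusp1, the phosphatase that removes the activating phosphates of MAP kinases, had the smallest standard error of the members and rose in all 4 comparisons with DMSO. At 6 h its signals were 10.64 and 10.69 in DMSO, 10.92, 11.03 and 11.00 with WS1442, and 11.56, 11.59 and 11.63 with MeOH eluate. The groups were fully apart, with MeOH eluate highest. The rise was 0.31 ± 0.06 with WS1442 (limma adjusted p = 0.00605) and 0.93 ± 0.06 with MeOH eluate (limma adjusted p = 1.1e-07), or 1.24-fold and 1.90-fold. Without DMSO replicate 1 the rise with WS1442 missed the threshold (limma adjusted p = 0.0966). At 24 h the signals were 10.53 and 10.59 in DMSO, 11.28, 11.42 and 11.25 with WS1442, and 11.29, 11.27 and 11.34 with MeOH eluate. Both treated groups stood above DMSO and overlapped each other, with rises of 0.76 ± 0.06 and 0.74 ± 0.06 (limma adjusted p = 1.95e-06 and 5.62e-07). Dusp1 is the only one of the 6 members in the promoter table with a full cAMP response element (TGACGTCA, in 1.55% of all windows, which contains the core on both strands). Its upstream window (GRCm38.p6, chr17:26508473-26508722, minus strand) is shown with that element and a further core in capitals.
Dusp1: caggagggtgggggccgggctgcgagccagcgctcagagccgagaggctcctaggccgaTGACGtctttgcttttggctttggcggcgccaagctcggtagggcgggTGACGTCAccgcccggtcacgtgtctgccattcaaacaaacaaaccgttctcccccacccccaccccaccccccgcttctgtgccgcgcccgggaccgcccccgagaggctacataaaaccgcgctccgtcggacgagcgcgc

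Ier3, a small protein that modulates ERK signalling and cell survival under stress, had the same order of groups as Dusp1 at 6 h and another at 24 h. At 6 h its signals were 10.03 and 10.03 in DMSO, 10.11, 10.30 and 10.32 with WS1442, and 10.85, 10.89 and 10.82 with MeOH eluate. MeOH eluate stood far above both other groups. The rise was 0.82 ± 0.07 with MeOH eluate (limma adjusted p = 3.11e-06), and the value with WS1442 was 0.21 ± 0.07 and did not pass (limma adjusted p = 0.0998), although all its samples were above DMSO. At 24 h the signals were 9.54 and 9.53 in DMSO, 10.06, 10.17 and 10.01 with WS1442, and 9.88, 9.70 and 9.72 with MeOH eluate. WS1442 was now the highest group, and no group overlapped another. The rises were 0.54 ± 0.07 with WS1442 (limma adjusted p = 0.000111) and 0.23 ± 0.07 with MeOH eluate (limma adjusted p = 0.0356). The latter was lost without either DMSO sample and without MeOH eluate replicate 1 or 3 (limma adjusted p = 0.0514 to 0.150).

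Ier2, a nuclear protein with a less well known role, differed little from DMSO at 6 h and rose at 24 h. At 6 h its signals were 11.47 and 11.65 in DMSO, 11.64, 11.66 and 11.84 with WS1442, and 11.36, 11.52 and 11.38 with MeOH eluate, so that both treated groups overlapped DMSO. At 24 h they were 11.78 and 11.95 in DMSO, 12.17, 12.15 and 12.12 with WS1442, and 12.23, 12.15 and 12.12 with MeOH eluate. Every treated sample was then above DMSO. The rises of Ier2 were 0.28 ± 0.07 for WS1442 and 0.30 ± 0.07 for MeOH eluate (limma adjusted p = 0.012 and 0.0102), and without DMSO replicate 1 the changes were 0.20 and 0.22 (limma adjusted p = 0.174 and 0.162).

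Arc, best known as a synaptic protein that is induced by neuronal activity, rose in all 4 comparisons with DMSO. At 6 h its signals were 7.59 and 7.62 in DMSO, 8.07, 8.32 and 8.39 with WS1442, and 8.04, 8.21 and 8.02 with MeOH eluate. At 24 h they were 7.82 and 7.85 in DMSO, 8.34, 8.32 and 8.48 with WS1442, and 8.48, 8.45 and 8.29 with MeOH eluate. The DMSO samples lay close together and below every treated sample, and the treated groups overlapped each other at both times. The rises at 6 h were 0.65 ± 0.10 and 0.48 ± 0.10 (limma adjusted p = 0.00255 and 0.00437), and at 24 h 0.54 ± 0.10 and 0.57 ± 0.10 (limma adjusted p = 0.00126 and 0.000889). Of 7 neuron markers tested, 1, the microtubule protein Map2, rose in each comparison with DMSO, and the immature neuron marker Dcx rose with WS1442 at 24 h. Of all genes, 4.15%, 8.67%, 12.9% and 9.64% rose (WS1442 and MeOH eluate at 6 h, then at 24 h). The other markers did not pass. In the same order 2, 4, 5 and 5 of the 7 were above DMSO and the rest below, with median log2 fold changes of -0.07, 0.19, 0.28 and 0.16. The mean log2 signal over these markers was 9.38 to 9.55 in DMSO and 9.37 to 9.61 in treated samples at 6 h, and 9.14 to 9.17 and 9.31 to 9.42 at 24 h, and the part of neuronal cells in the values of Arc was not tested.

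**Figure D3:**
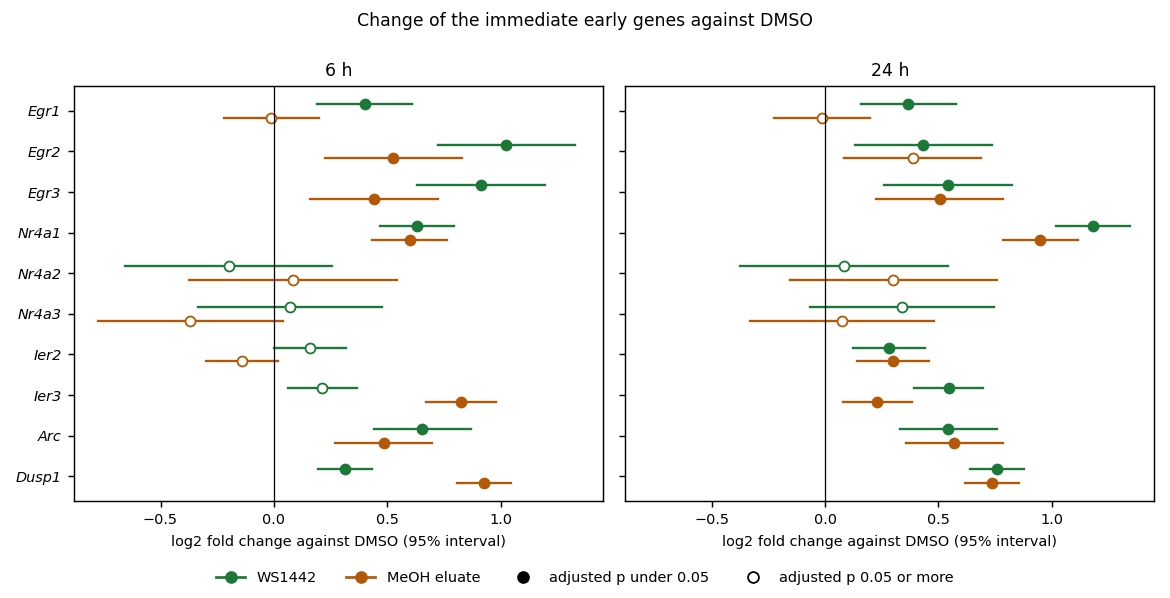
Log2 fold changes against DMSO of the 10 genes, each at its tested probe, at 6 h (left) and 24 h (right), with 95% intervals from limma. Filled points have an adjusted p under 0.05. At 6 h Egr2 and Egr3 lie farthest to the right with WS1442 and Dusp1 and Ier3 with MeOH eluate, and at 24 h Nr4a1 lies farthest to the right with both.

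The treatments were also set against each other at these doses, which differ, so the comparison is of 0.1 mg/ml of the fraction with 0.25 mg/ml of the extract. At 6 h, 6 of the 10 genes differed, where 12.1% of all genes did. Dusp1 and Ier3 were higher with MeOH eluate, each by 0.61 (SE 0.05 and 0.06, limma adjusted p = 7.24e-06 and 6.08e-05), and 4.8% of all genes were higher. Egr1, Egr2, Egr3 and Ier2 were lower, by log2 fold changes of -0.41 ± 0.09, -0.50 ± 0.13, -0.47 ± 0.12 and -0.30 ± 0.07 (limma adjusted p between 0.00997 and 0.0221), and 7.34% of all genes were lower. With the kept probes of a gene averaged, Egr3 was at -0.30 and Ier2 at -0.36, and neither passed (limma adjusted p = 0.373 and 0.147). Nr4a1 did not pass, with -0.03 and a 95% interval of -0.18 to 0.11. At 24 h, 3 of the 10 genes were lower with MeOH eluate and none higher, where 7.18% of all genes were lower and 14.6% changed. These were Egr1 (-0.38 ± 0.09), Ier3 (-0.31 ± 0.06) and Nr4a1 (-0.23 ± 0.07), with limma adjusted p = 0.0101, 0.00481 and 0.0343. Dusp1 no longer passed, with -0.02 and a 95% interval of -0.13 to 0.08. Without MeOH eluate replicate 1 or WS1442 replicate 3 the count at 6 h was 3, and without replicate 3 of either treatment the count at 24 h was 1. Whichever array was left out, 3 genes remained at 6 h and 1, Ier3, at 24 h, the 3 being Dusp1, Ier3 and Egr1.

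The difference between the effect at 24 h and the effect at 6 h, each against its own DMSO samples, was tested for each gene. With WS1442 the effect was larger at 24 h for 3 genes and smaller for none, where 5.74% of all genes had a larger and 6.94% a smaller effect. The 3 genes were Nr4a1 (0.55 ± 0.11, limma adjusted p = 0.00584), Dusp1 (0.44 ± 0.08, limma adjusted p = 0.00376) and Ier3 (0.33 ± 0.10, limma adjusted p = 0.044). That of Ier3 was lost in 11 of the 16 fits that left out 1 array (limma adjusted p up to 0.118). For Egr2 and Egr3 the difference was -0.59 ± 0.20 and -0.37 ± 0.19, and neither passed (limma adjusted p = 0.0663 and 0.216). With MeOH eluate the effect on Ier2 was larger at 24 h (0.44 ± 0.10, limma adjusted p = 0.0172) and that on Ier3 smaller (-0.59 ± 0.10, limma adjusted p = 0.00191), where 3.92% of all genes had a larger and 3.84% a smaller effect. That of Ier2 was lost without DMSO replicate 2 at 6 h or DMSO replicate 1 at 24 h (limma adjusted p = 0.0871 and 0.0939). Ier3 was the 1 member for which both differences passed with all arrays in the fit, and they had opposite signs.

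For Egr3, Nr4a3 and Ier2 the array holds more than 1 probe, and not all of them followed the tested one. Both Egr3 probes that carry the symbol lie on chr14 (mm9), the tested one at chr14:70482361-70482420 and the other at chr14:70481979-70482038. The second is dim. Its DMSO signals were not well above background at either time. With WS1442 at 6 h it was well above background on all 3 arrays. The log2 fold change there was 0.83 ± 0.49, which did not pass (limma adjusted p = 0.407 in the fit of all probes). The probe passed the filter on dim signals only through this group. Its separation from DMSO there was thus partly set by that filter. In each of the other treated groups the probe was well above background on 1 of 3 arrays. There the signals overlapped those of DMSO, so no fold is given. The third Egr3 probe, for the other RefSeq transcript, was well above background on all 16 arrays and gave -0.20 ± 0.20, -0.15 ± 0.20, -0.04 ± 0.20 and 0.12 ± 0.20, none of which passed (limma, 0.668 the smallest adjusted p), so the rise of Egr3 rests on 1 probe. With the kept Egr3 probes averaged, no comparison with DMSO passed (limma adjusted p = 0.25 to 0.60). Nr4a3 has a further probe that gave 0.19, 0.29, 0.24 and 0.31 (SE 0.14), none past the test, and at 6 h with MeOH eluate its sign was opposite to that of the tested probe. Its last probe did not rise above background on a single array. The dim second probe of Ier2 gave -0.42 and -0.49 (SE 0.36) at 24 h, opposite in sign to the tested probe and not past the test. With both Ier2 probes averaged the values at 24 h were -0.07 and -0.10 and did not pass.

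**Figure D4:**
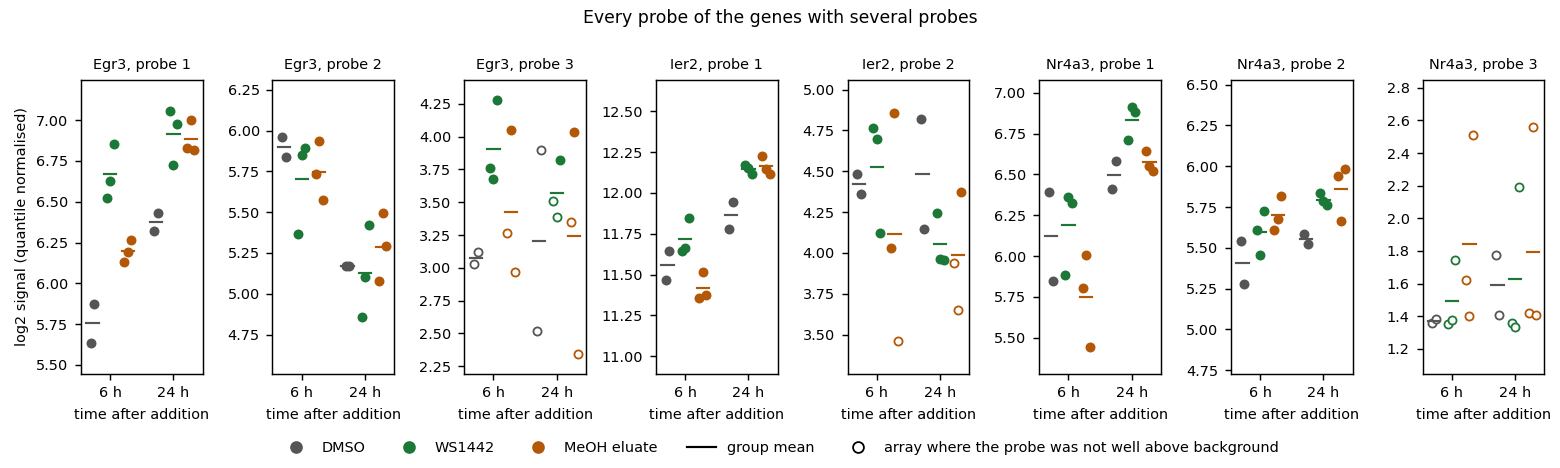
Every probe of Egr3, Ier2 and Nr4a3, in order of mean signal within the gene, with log2 signal on the vertical axis and arrays grouped by time and treatment. Open points are arrays on which the probe was not well above background. Egr3 probe 1 separates treated from DMSO samples and Egr3 probe 2, measured on all arrays, does not.

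Across the 16 arrays, with the mean of each time point removed, Egr2 and Egr3 had the most similar profiles of any pair of members (Pearson r = 0.93), followed by Dusp1 and Ier3 (r = 0.90), Arc and Egr3 (r = 0.90) and Arc and Nr4a1 (r = 0.90). Nr4a2 was least like the others (r = -0.46 with Egr1). The arrays share their treatment groups, so these values describe the same group differences as above. Of 20911 other annotated genes, those most like the mean profile of the members were Stat2 (r = 0.96), Stx2 (r = 0.95), Igdcc4 (r = 0.95), Fam120b (r = 0.95) and Tjp3 (r = 0.94), where the median gene had r = 0.07. Arc and Nr4a1 themselves had r = 0.96 and 0.95 with that mean, of which they are part, and Nr4a2 had 0.05.

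Other genes of the same pathways were described from lists chosen by function, with earlier results of these data known. The counts of every list below stand beside the shares of all genes tested. Of these, 4.15%, 8.67%, 12.9% and 9.64% rose and 1.46%, 8.38%, 11.9% and 8.59% fell (WS1442 and MeOH eluate at 6 h, then at 24 h). In the AP-1 family, the Fos and Jun transcription factors and their relatives, 3 of 9 genes rose with each treatment at 6 h, 6 of 9 with WS1442 and 5 of 9 with MeOH eluate at 24 h, and none fell. Atf3, a stress-induced member, rose in every comparison, by 0.44, 0.76, 1.33 and 1.60 (WS1442 and MeOH eluate at 6 h, then at 24 h, SE 0.07). Jund rose by 0.65 and 1.08 at 6 h and by 0.34 and 0.37 at 24 h (SE 0.07). Jun passed only at 6 h (0.46 and 0.70, SE 0.08) and Fosl1 only at 24 h (0.96 and 0.70, SE 0.10). Fos and Fosb, the members most used as markers of an immediate early response, did not pass in any comparison, with values of 0.34, 0.02, 0.42 and 0.11 for Fos (SE 0.15).

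Of the 9 other MAP kinase phosphatases, 3 rose and 1 fell with WS1442 at 6 h, 5 rose and 2 fell with MeOH eluate at 6 h, and 5 rose and 3 fell with either treatment at 24 h. Dusp8, which acts on the stress kinases JNK and p38, rose in every comparison (0.75, 1.33, 1.58 and 1.24, SE 0.12), as did Dusp10 (0.67, 1.02, 0.55 and 0.46, SE 0.09), which has the same substrates. Dusp6, which is specific for ERK and is itself an ERK target, fell in every comparison (-0.39, -1.15, -0.24 and -0.56, SE 0.06). Dusp2 fell by 1.34 on the log2 scale with MeOH eluate at 24 h (SE 0.12).

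**Figure D5:**
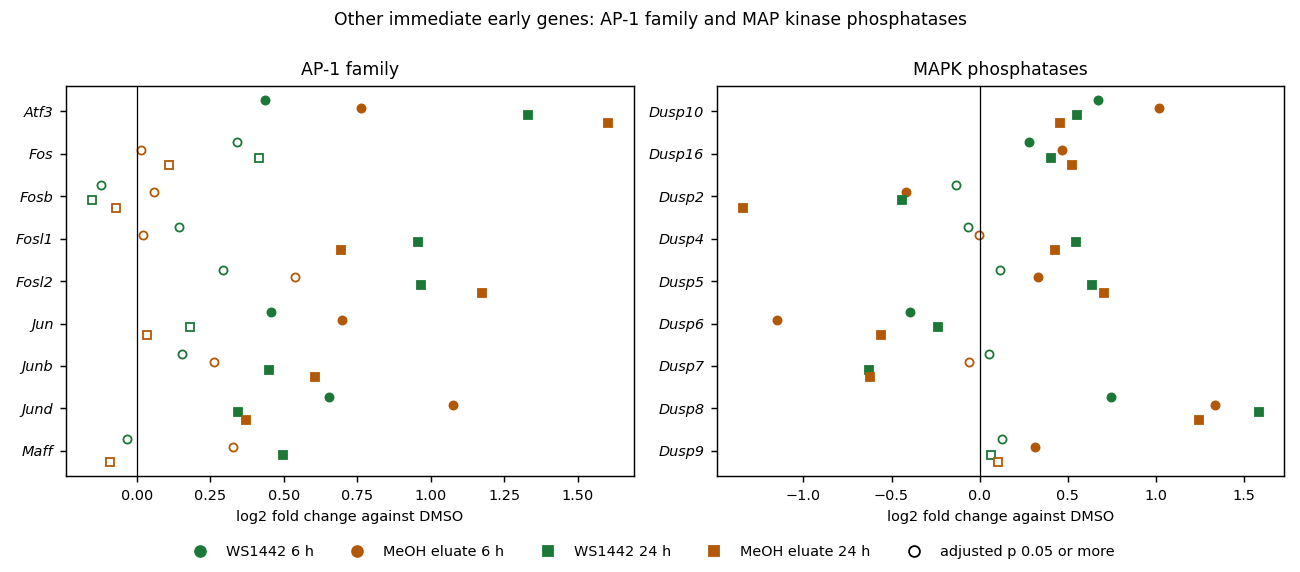
Log2 fold changes against DMSO of the AP-1 family (left) and of the MAP kinase phosphatases other than Dusp1 (right), with circles for 6 h and squares for 24 h and open symbols for an adjusted p of 0.05 or more. Atf3, Jund, Dusp8 and Dusp10 are to the right of 0 with filled symbols throughout, and Dusp6 is to the left throughout.

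Among 38 further immediate early genes the direction was mixed, with 9, 12, 12 and 12 that rose and 2, 6, 5 and 13 that fell (WS1442 and MeOH eluate at 6 h, then at 24 h). Klf6 rose in every comparison (0.40, 1.02, 0.52 and 0.42, SE 0.06), and so did Bhlhe40, a repressor of the circadian clock (0.21, 0.72, 0.87 and 1.06, SE 0.05). Klf10 rose by 0.61 and 1.02 at 6 h and fell by 0.42 with MeOH eluate at 24 h (SE 0.06). Myc fell with MeOH eluate at 6 h (-0.40), and at 24 h with WS1442 (-0.57) and MeOH eluate (-1.01, SE 0.07). The median over the list was 0.00, 0.09, 0.11 and 0.05, near that of all genes. Rises and falls offset each other in this median. More of the list changed in either direction than of all genes, where 5.61%, 17.1%, 24.7% and 18.2% did. The medians of the 10 members, which like the lists were chosen with earlier results known, were higher.

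Of 13 genes known as Egr targets, 1, 4, 6 and 4 rose and 0, 2, 1 and 2 fell. Cdkn1a, a cell cycle inhibitor, rose in every comparison (0.39, 0.33, 0.88 and 0.80, SE 0.07). Ptgs2, the inducible cyclooxygenase, rose by 1.69 and 2.00 at 24 h (SE 0.29), where its DMSO signals were 3.09, not well above background, and 4.54, those with WS1442 5.31 to 5.70 and those with MeOH eluate 5.74 to 5.89. Without the dim DMSO sample, replicate 1, the rises were 0.96 and 1.28 (limma adjusted p = 0.00677 and 0.000842). Nab2, a corepressor of Egr proteins that is itself induced by them, was at -0.24 with WS1442 at 6 h, which did not pass. It fell in the other comparisons, to -0.34, -0.46 and -0.75 (SE 0.08). Of 4 listed NAB corepressors and Egr relatives, Nab2 and Egr4 included, 0, 1, 1 and 0 rose and 0, 1, 1 and 2 fell. Of 7 genes for serum response factor and its partners, 1 rose in each comparison, and Elk3 fell with MeOH eluate at both times. Of 12 genes of the CREB family and its coactivators 1, 0, 2 and 1 rose and 0, 3, 1 and 1 fell, and of 15 genes of the ERK cascade 0, 3, 2 and 3 rose and 0, 1, 2 and 2 fell. Of all genes 5.61%, 17.1%, 24.7% and 18.2% changed, so the counts of these short lists are not read as a change of either pathway. Of 3 genes for Bdnf and its receptors Bdnf rose with WS1442 at 24 h (0.43, SE 0.08), and of 3 RXR genes, the partners of Nr4a proteins, Rxra fell there (-0.30). Of 7 chaperone and stress genes 2, 4, 3 and 3 rose and 0, 1, 1 and 1 fell, among them Hspa1a (0.54, 0.80, 0.94 and 0.82, SE 0.13), whose near-identical copy Hspa1b may share its signal.

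Some calls of these related genes rested on single arrays. Without DMSO replicate 1 at 6 h the rises of Jun, Dusp8, Bhlhe40, Cdkn1a, Hspa1a and Map2 with WS1442 at 6 h missed the threshold (limma adjusted p = 0.0534 to 0.466). Those of Bhlhe40 and Hspa1a also did so without WS1442 replicate 3 (limma adjusted p = 0.129 and 0.0935), and that of Bhlhe40 without WS1442 replicate 2 at 6 h or MeOH eluate replicate 1 at 24 h (0.0696 and 0.051). That of Hspa1a also missed it without DMSO replicate 2 (limma adjusted p = 0.0748), as did the fall of Nab2 with MeOH eluate at 6 h (0.113). At 24 h the fall of Dusp6 with WS1442 was lost without DMSO replicate 2 or WS1442 replicate 3 (limma adjusted p = 0.0971 and 0.0547), and that of Rxra without DMSO replicate 1 (0.0767). The fall of Elk3 with MeOH eluate at 24 h was lost without any 1 of 7 arrays (limma adjusted p = 0.0501 to 0.318).

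Markers of cell types were counted in the same 4 comparisons with DMSO (WS1442 and MeOH eluate at 6 h, then at 24 h). Of all genes tested, 4.15%, 8.67%, 12.9% and 9.64% rose and 1.46%, 8.38%, 11.9% and 8.59% fell. Of 12 mesoderm and cardiac progenitor markers 0, 2, 1 and 0 rose and 2, 3, 3 and 5 fell, of 5 endoderm markers 0, 0, 1 and 0 rose and 1, 4, 2 and 2 fell, and of 8 pluripotency markers none rose and 1, 3, 2 and 1 fell. The mean log2 signal of the mesoderm list was 7.94 to 7.98 in DMSO, 7.77 to 7.89 with WS1442 and 7.47 to 7.70 with MeOH eluate at 6 h, and 7.99 to 8.08, 7.87 to 7.97 and 7.54 to 7.69 at 24 h. That of the endoderm list was 7.73 to 7.85, 7.31 to 7.49 and 6.71 to 6.87 at 6 h, and 8.32 to 8.44, 7.89 to 7.92 and 7.54 to 7.90 at 24 h. Of 6 neuroectoderm markers 0, 1, 3 and 2 rose and 2, 3, 0 and 2 fell, of 8 endothelial and blood markers 0, 0, 0 and 1 rose and 0, 0, 1 and 2 fell, and of 4 smooth muscle markers 0, 2, 1 and 1 rose and 0, 0, 2 and 0 fell. The part of cell composition in the values of the 10 genes was not tested.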

How the data were processed

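The authors hybridised Cy3-labelled cRNA of 16 samples to 1-colour Agilent arrays. As deposited, scanner intensities are background corrected within the array and not normalised between arrays, and a further deposited table holds linear intensities after quantile normalisation, each of whose columns matched its own array best (r of at least 0.9983). That table averages probes of 1 transcript, both symbol-carrying Egr3 probes included. Processed intensities were taken as log2 and quantile normalised over all arrays with limma 3.58.1 in R 4.3.3, as the methods of the study state for normalisation, and tables and figures were made with Python 3.11.15 and pandas 2.3.3. Spots of a probe were averaged and non-uniform spots set missing. A probe was kept if all arrays of some group had it well above background (36729 of 60273), and a gene was represented by its brightest kept probe. Of all probes, 10077 had a symbol in the file, 32584 were named by accession and 420 by a synonym through RefSeq, and 17192 kept the name given.

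All 6 groups were fitted in 1 limma model with a signal-dependent variance prior, and p-values were adjusted by Benjamini-Hochberg over all 29226 genes. The procedure was tested on simulated data. Groups come from the sample titles. The members and lists were chosen with earlier results of these data known. Named genes are the members at every probe, up to 4 genes per list and DMSO comparison with the smallest adjusted p, with their values in the other comparisons, and the 5 genes most like the members' mean profile. Fos, Fosb, Egr4 and the markers that describe the cultures were named in addition. Fosl2 and the remaining genes of the plotted lists appear in the plots only. Replicate numbers were not taken to pair samples, because deviations of same-numbered samples correlated between -0.23 and 0.31, with 2 of 14 pairs above 0.1. Alternatives covered scaling, background correction, filter, probe choice, value table, test, blocks, array weights and leaving out each array. Student's t-test, which the study names for pairwise comparisons, is called the methods' t-test. Array signals carry no molecule counts, so the number of arrays limits precision.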

Additional observations from a re-analysis of the deposited data

Results flagged for a closer look

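For 4 of the 10 genes the change against DMSO differed between 24 h and 6 h by a test of the difference itself (limma, adjusted over all genes), 3 of them with WS1442, where 5.74% of all genes had a larger effect at 24 h, and 2 with MeOH eluate, where 3.92% had a larger and 3.84% a smaller one. With WS1442 the effect on Nr4a1 was larger at 24 h by 0.55 ± 0.11 on the log2 scale (limma adjusted p = 0.00584), that on Dusp1 by 0.44 ± 0.08 (limma adjusted p = 0.00376) and that on Ier3 by 0.33 ± 0.10 (limma adjusted p = 0.044). With MeOH eluate the effect on Ier2 was larger at 24 h by 0.44 ± 0.10 (limma adjusted p = 0.0172) and that on Ier3 differed by -0.59 ± 0.10 (limma adjusted p = 0.00191). The result for Ier3 with WS1442 was lost in 11 of the 16 fits that left out 1 array, and that for Ier2 in 2 of them. Each effect was taken against the DMSO samples of its own slide, and both treatments share those samples.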

How the results depend on the processing

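Of 27 alternatives, the series value table, array weights, the array row as a block and a filter for signal on all 16 arrays left every count of members called within 1.5 times its value, as did normexp background correction and no filter on dim probes. The methods' t-test, which takes its spread from the compared groups alone, called 0 members after Benjamini-Hochberg adjustment for WS1442 at 6 h and at 24 h, 0 and 1 for MeOH eluate, and 1 and 0 between the treatments at 6 h and 24 h, against 6, 8, 6, 6, 6 and 3 by limma, while 6, 7, 5, 5, 7 and 4 had an unadjusted p under 0.05. It called 1, 103, 8, 319, 70 and 206 of all genes, against 1640, 7228, 4984, 5326, 3548 and 4266. Under scaling to the 75th percentile, and with the kept probes averaged, 1 member rather than 2 had a MeOH eluate effect that differed between times. That scaling also ended the 24 h rises of Egr1 and Ier2 with WS1442 (limma adjusted p = 0.103 and 0.162) and of Ier2 and Ier3 with MeOH eluate (0.0971 and 0.0961). The difference of Nr4a1 between the treatments at 24 h and the time difference of Ier3 with WS1442 were lost too (limma adjusted p = 0.122 and 0.189). Averaging the probes also turned Ier2 at 24 h to -0.0703 with WS1442 and -0.0968 with MeOH eluate, below the threshold (limma adjusted p = 0.818 and 0.794), since its second probe is dim and differs in sign. Leaving out each array in turn, the count was 4 to 7 for WS1442 and 4 to 6 for MeOH eluate at 6 h, 4 to 8 and 3 to 7 at 24 h, 3 to 8 and 1 to 3 between the treatments at 6 h and 24 h, and 2 to 3 and 1 to 3 for the difference between times with WS1442 and MeOH eluate. Members called whichever array was left out numbered 4 and 4 at 6 h and 4 and 3 at 24 h. Without DMSO replicate 1 at 6 h, 238 and 1976 of all genes were called there, and without DMSO replicate 1 at 24 h 3829 and 3326. Within the arrays of 1 time point, 481 genes were called for WS1442 at 6 h and 1604 between the treatments. Under the 75th percentile scaling the share of higher genes among those called was 85.1% rather than 74.0% for WS1442 at 6 h, 40.2% rather than 52.1% for WS1442 at 24 h, 20.7% rather than 39.5% between the treatments at 6 h and 28.1% rather than 45.3% for the time difference with WS1442. Over single genes, 1987 values kept their side of the threshold, 116 fell below it, 15 rose above it and 2 reversed.

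The replicate numbers were not taken to pair the samples. The correlations of same-numbered samples, from groups of 2 or 3, cannot exclude a pairing. With the replicate block, 5 and 5 members were called at 6 h, 8 and 5 at 24 h, 6 and 3 between the treatments, and 2 and 3 for the difference between times. For WS1442 at 6 h the block left 898 of all genes called.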
